A study of Mus musculus with 6 samples.

Results

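The 32 genes described here encode the enzymes of glycolysis, the carriers that bring glucose into cells and export lactate, the kinases that set the flow through the pathway, and the oxygen-sensing factor HIF with a few of its target genes. They were chosen by gene symbol, and all 32 were found among the 56940 genes listed in each library, through 33 Ensembl identifiers because Aldoa has a second one. That second identifier held at most 15 counts in a library and was not used. RNA came from lens capsules of wildtype C57BL/6 mice with the lens epithelial cells still attached, the tissue that stays in the eye when the fiber cell mass is taken out in a model of cataract surgery. Capsules taken at the operation (0 h) were compared with capsules taken 5 days after it, with 3 libraries per time and a pool of 5 capsules per library. Each mouse had one eye operated on first and the other 5 days later, when both capsules were collected, so a 0 h capsule is that of an eye just operated on in an animal whose fellow eye was 5 days past surgery, and no treatment other than the operation is given. The labels do not say which mice went into which pool, so p-values measure the spread between these pools. The labels name no transgene, sorting or dissociation step, and each library therefore holds RNA of every cell left on or grown onto the capsule.

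Glycolysis splits glucose into pyruvate in the cytosol and yields ATP without oxygen. Lactate dehydrogenase turns pyruvate into lactate, which leaves through monocarboxylate carriers. The lens has no blood vessels and little oxygen, and its epithelium and fibers draw much of their energy from this route. HIF, a pair of an oxygen-regulated alpha subunit (Hif1a) and a stable partner (Arnt), raises transcription of many glycolytic genes when oxygen is low, while prolyl hydroxylases (Egln genes) mark the alpha subunit for destruction when oxygen is present. Because HIF is regulated mainly at the level of protein, the count of Hif1a RNA is not a readout of HIF activity.

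The libraries held 6207387 to 9774343 gene counts, of which the 32 genes took 0.750 to 0.968%. Levels are given in CPM (counts scaled to a common library total) after TMM scaling, which corrects for libraries of different make-up, and changes as the log2 ratio of 5 days to 0 h with its standard error (SE) from edgeR's quasi-likelihood test. A gene is said to have risen or fallen where its p-value, adjusted by the Benjamini-Hochberg method over all 14676 genes tested, was under 0.05. Other cells and cell states moved with the same comparison. The summed level of 14 lens fiber markers was 149800 to 175500 CPM at 0 h and 10810 to 35420 CPM at 5 days, and that of 10 lens epithelium markers was 4139 to 4326 and 2773 to 3216 CPM. The labelled cell type was thus present at both times by its markers, none of the 10 being at 0. Its markers went both ways, however, with 2 higher and 6 lower. Mean levels went from 789.6 to 1112 CPM for Cp, which rose, and from 416.9 to 16.5 CPM for Npnt, which fell. The 15 macrophage and monocyte markers summed to 22.4 to 48.9 CPM at 0 h, with Ccr2 at 0, and to 574 to 815 CPM at 5 days, and all 15 rose. The 10 photoreceptor markers summed to 605 to 902 and then 47.9 to 127 CPM, and all 10 fell. The 8 striated muscle markers summed to 59.0 to 63.1 and 8.54 to 13.4 CPM, but most of that was Eno3 (41.75, 50.14 and 51.98 CPM at 0 h and 12.25, 12.18 and 5.475 CPM at 5 days) and Pgam2, which are glycolytic isoenzymes too. Myh4, Myh2 and Mb held at most 6 counts in a library at 0 h and 0 at 5 days. Ckm, another muscle marker, had 22, 21 and 27 counts at 0 h and 5, 0 and 0 at 5 days, and fell (log2 fold change -3.58, SE 0.86). The 5 corneal epithelium markers summed to 810 to 1084 and 414 to 642 CPM, nearly all of it Aldh3a1. Muller glia and astrocyte markers (6 genes) summed to 1483 to 1865 and 1478 to 2121 CPM. Most of that was Apoe (means of 1231 and 1430 CPM, not called), while 1 of these genes rose (Gfap) and 4 fell (Aqp4 and Glul among them). Pigment cell markers (6 genes) summed to 18.3 to 45.8 and 12.4 to 39.8 CPM, with Rpe65 at 42, 49 and 99 counts at 0 h and at 0 at 5 days. Red blood cell markers (7 genes) summed to 1.07 to 1.21 and 0.318 to 4.14 CPM. Of 10 neutrophil markers 8 were at 0 at 0 h (S100a8 and S100a9 among them) and 2 at 5 days, with sums of at most 0.329 and 29.1 CPM. In pooled tissue, fewer cells of a type and less RNA per cell cannot be told apart, and the part of these cells in the results below was not tested.

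Of the 32 genes, all of which passed the filter on low counts, 10 rose, 5 fell and 17 were not called at 5 days. The share called in either direction, 46.9%, lay close to the background of 47.6% among all genes tested (25.1% rose and 22.5% fell). Their median change was 0.14 on the log2 scale, and that of all genes tested was -0.01. Changes of at least 2-fold were called upward for Adm, Slc2a3, Slc16a3, Ankrd37 and Slc16a1 (5 genes, where 14.5% of all genes tested rose that far) and downward for Aldoc, Hif1a, Ndrg1 and Ldhb (4 genes, against 10.9%). The 3 libraries of one time lay wholly above or below those of the other for 16 of the 32 genes (11 higher and 5 lower), where 58.1% of all genes did so (29.9% higher and 28.2% lower). Replicate 3 at 5 days was the highest library of its time for all 10 genes that rose (52.8% of all genes that rose) and for 27 of the 32 genes, as the plot of levels by library shows. The matching share over all genes tested was not computed, so the 27 cannot be read as particular to this set. The same library stood apart in Krt14 and Krt5, keratins of surface epithelium. In replicates 1, 2 and 3 at 5 days Krt14 was at 0.318, 0.251 and 45.8 CPM (2, 2 and 418 counts). Krt5 was at 0.159, 0.251 and 19.9 CPM (1, 2 and 182 counts), and both had at most 2 counts in a library at 0 h. The other corneal epithelium markers did not follow. In the same order Krt15 was at 3.98, 3.52 and 2.08 CPM, Aldh3a1 at 467.1, 637.9 and 345.6 CPM and Krt12 at 1.75, 0 and 1.095 CPM. The part of surface epithelium cells in the levels of replicate 3 was not tested. Without that library 9 genes rose and 9 fell: the 5 named as lower kept their calls, and Gapdh, Eno2, Pdk1 and Egln3 joined them, while Pfkp lost its call. Scaling by total library size instead, which shifted the median of all genes up by 0.13, gave 12 of the 32 genes as higher and 4 as lower, and upward calls made up 62.9% of all calls against 52.7%.

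**Figure D1:**
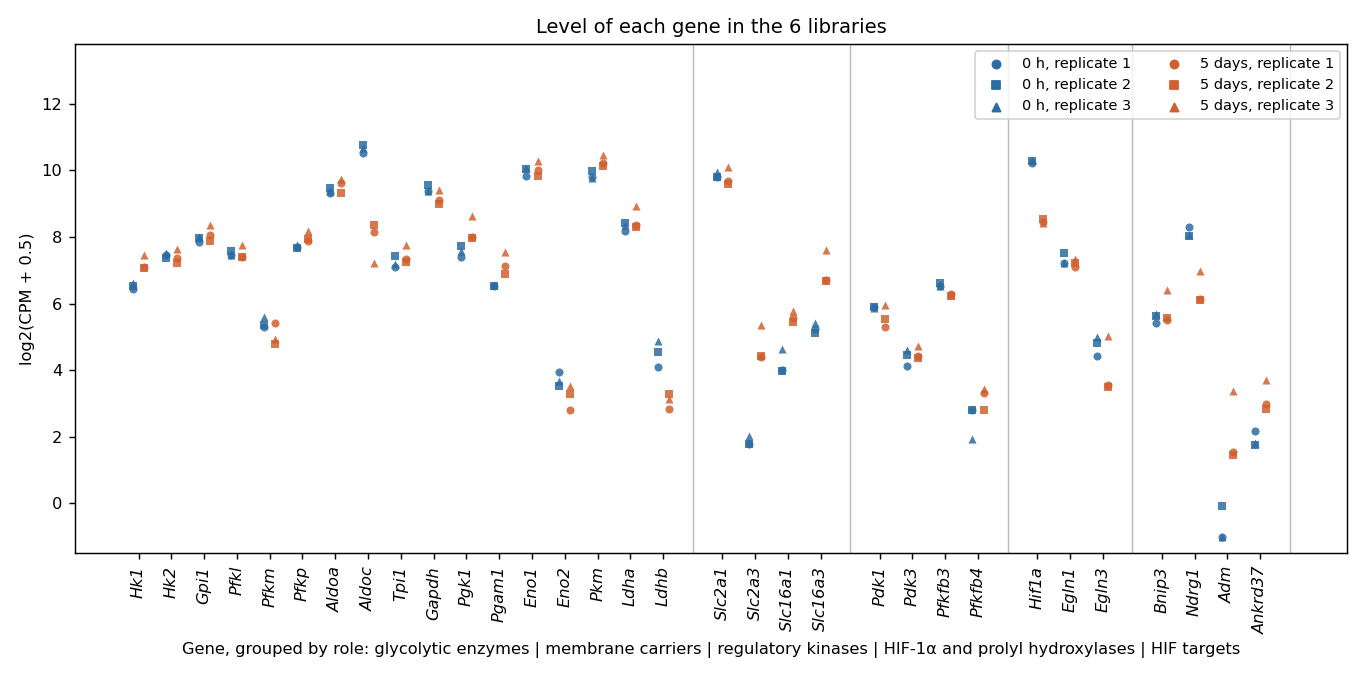
Level of each of the 32 genes in the 6 libraries, as log2 of CPM plus 0.5, with blue symbols for 0 h, orange for 5 days and a symbol shape for each replicate. Aldoc and Hif1a drop at 5 days in every library, Slc2a3 and Slc16a3 climb, and the orange triangles of replicate 3 at 5 days lie highest of their time for 27 of the 32 genes.

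The carriers for glucose and lactate held 3 of the larger rises. Slc2a3 encodes GLUT3, a glucose carrier of high affinity best known from neurons and white blood cells. It stood at 2.96, 2.96 and 3.58 CPM at 0 h and at 20.5, 21.0 and 40.8 CPM at 5 days. The times did not overlap, replicate 3 at 5 days was well above the other two, and the log2 fold change was 3.12 (SE 0.30, adjusted p = 4.46e-06 by edgeR). Slc16a3 encodes MCT4, a carrier suited to lactate export, and stood at 37.6, 34.0 and 42.4 CPM at 0 h and 105, 102 and 195 CPM at 5 days. It rose by 1.82 on the log2 scale (SE 0.22, adjusted p = 2.72e-05 by edgeR), again with replicate 3 highest. Slc16a1, which encodes the more widespread lactate carrier MCT1, went from 15.6, 15.4 and 24.2 CPM to 46.8, 43.5 and 54.1 CPM, a rise of 1.39 (SE 0.18, adjusted p = 4.6e-05 by edgeR). The lowest library at 5 days lay above the highest at 0 h for each of these 3 carriers. Macrophage markers rose in the same comparison and summed to 814.5, 574.2 and 636.1 CPM in replicates 1, 2 and 3 at 5 days. The 8 neuron markers summed to 75.4 to 99.4 CPM at 0 h and to 70.34, 87.78 and 129.3 CPM at 5 days. Of these, 2 genes were higher (Stmn2 and Tubb3) and 5 lower (Snap25 and Syt1 among them). Stmn2 alone was at 41.2, 41.1 and 81.0 CPM at 5 days. The 7 vascular endothelium markers summed to 7.81 to 14.6 CPM at 0 h and to 32.15, 26.62 and 51.24 CPM at 5 days, and 3 rose. The part of these cells in the rise of Slc2a3 was not tested.

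Slc2a1, which encodes the basal glucose carrier GLUT1, was the most abundant carrier at both times and was not called. It stood at 887.8, 886.6 and 991.1 CPM at 0 h and 817, 768 and 1091 CPM at 5 days, with overlapping libraries and a log2 fold change of -0.05 (SE 0.14) that was 0.08 with total library size. Per kilobase of exon, Slc2a1 was at 262.9 CPM at 0 h and 254.4 at 5 days, and Slc2a3 at 0.437 and 3.79. Slc2a3 thus made up 0.166 ± 0.00751% of the summed level per kilobase of the pair at 0 h and 1.43 ± 0.308% at 5 days (SD, n = 3). Slc2a1 remained far above Slc2a3 in every library although the latter rose. MCT4 exceeded MCT1 at both times by the same measure, with Slc16a3 holding 63.6 ± 3.82% and 68.8 ± 5.38% of the pair (SD, n = 3), and the libraries of both times overlapped in that share.

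The enzymes of the glycolytic sequence moved by less than 2-fold apart from Aldoc and Ldhb. Of 17 genes, 5 rose, 2 fell and 10 were not called (41.2% called, beside 47.6% of all genes), with a median change of 0.17 on the log2 scale. The 5 that rose act at several steps: Hk1, a hexokinase that traps glucose by phosphorylation, Pfkp, a subunit of the committing phosphofructokinase, Pgk1 and Pgam1 in the later, ATP-yielding steps, and Pkm, the pyruvate kinase of its last step. Hk1 rose from 85.5, 92.5 and 98.2 CPM to 137, 133 and 175 CPM (log2 fold change 0.69, SE 0.12). Pgk1, which makes the first ATP of the pathway, rose from 169.6, 211.7 and 192.6 CPM to 258.3, 252.3 and 397.1 CPM (0.66, SE 0.16). For Pgam1, the phosphoglycerate mutase, the 0 h libraries lay between 91.6 and 93.6 CPM and the 5 day libraries between 117.7 and 185.4 CPM (0.67, SE 0.14). Hk1, Pgk1 and Pgam1 passed the test under every alternative run, the largest adjusted p by edgeR or another tool being 0.00425, 0.0351 and 0.0135.

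The other 2 rises were smaller. Pkm, at 896, 1018 and 880 CPM at 0 h and 1207, 1131 and 1403 CPM at 5 days, had a rise of 0.42 (SE 0.12). Dropping replicate 1 or replicate 3 of the 0 h group ended that call, with a log2 fold change of Pkm of 0.39 or 0.37 and an adjusted p of up to 0.0723 by edgeR. Pfkp went from 204 to 219 CPM up to 237 to 287 CPM, a change of 0.29 (SE 0.10, adjusted p = 0.0344 by edgeR), and was not called when any 0 h library or replicate 3 at 5 days was dropped (0.19 to 0.31 in those 4 fits) or without the low-count filter. Gene counts do not separate the muscle form of Pkm from the form of growing cells, which are spliced from one gene.

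Among the enzymes not called were Eno1, Gapdh and Ldha, which act at the central and final steps. Eno1, an enolase, stood at 921, 1048 and 1069 CPM at 0 h and 1030, 905 and 1244 CPM at 5 days. Gapdh, the dehydrogenase often used as a reference gene, was at 661, 750 and 670 CPM and then 547.9, 508.0 and 685.5 CPM, with overlapping libraries and a log2 fold change of -0.26 (SE 0.13). It was called lower only without replicate 3 at 5 days (-0.41, adjusted p = 0.00503 by edgeR). Ldha, which makes lactate from pyruvate, was at 290.2, 343.7 and 328.7 CPM and 328.5, 318.2 and 487.1 CPM (0.24, SE 0.15), and was at -0.001 without replicate 3 at 5 days. Hk2, Gpi1, Pfkl, Pfkm, Aldoa, Tpi1 and Eno2 were likewise not called, with log2 fold changes between -0.49 and 0.22. Single libraries bore on 3 of these: Pfkm was called lower without replicate 1 at 5 days (-0.57), Aldoa higher without replicate 2 at 5 days (0.30), and Eno2 lower without replicate 3 at 5 days (-0.69). Pfkm was also called lower with all libraries when the low-count filter was left out (-0.37, adjusted p = 0.0476 by edgeR). Eno1b, a near copy of Eno1, held 161 to 321 counts in a library. Other named copies of these genes, from which reads could stray, held at most 7 counts in a library.

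**Figure D2:**
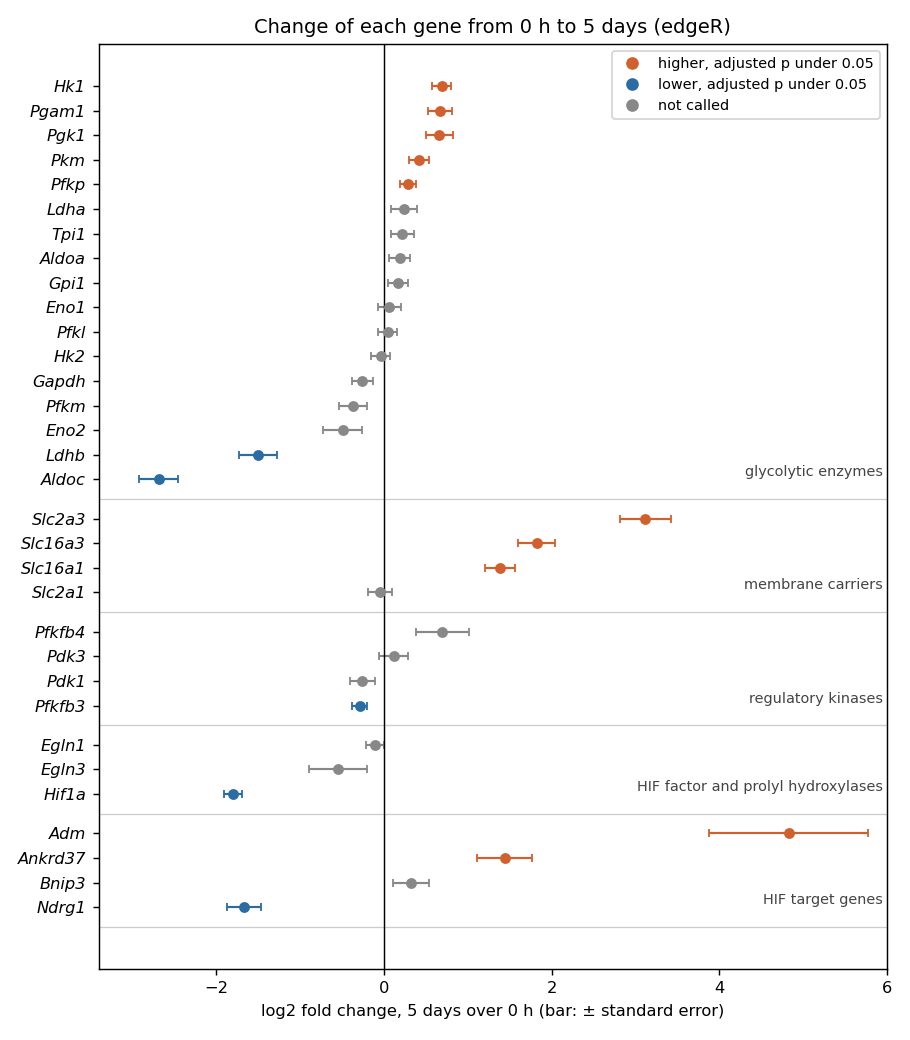
Log2 fold change of each of the 32 genes at 5 days over 0 h with its standard error, ordered by size within each role, with orange for genes that rose, blue for genes that fell and grey for genes not called. The glycolytic enzymes cluster near 0 except Ldhb and Aldoc, and the widest error belongs to Adm (SE 0.95).

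Aldoc fell furthest of the 32 genes. It encodes aldolase C, the aldolase of brain and other nervous tissue, and it had the highest level of the 32 genes per kilobase of exon at 0 h, 497 CPM against 231 for Aldoa. Its libraries were at 1464, 1758 and 1644 CPM at 0 h and at 283.3, 325.3 and 149.9 CPM at 5 days. Every 5 day library lay below every 0 h library, with replicate 3 lowest, and the log2 fold change was -2.68 (SE 0.24, adjusted p = 1.96e-06 by edgeR). Aldoa, the widespread aldolase, was not called at 0.19 (SE 0.12). In the summed level per kilobase of both aldolases, the share of Aldoa was 32.8, 31.4 and 31.1% at 0 h and 75.8, 69.0 and 86.5% at 5 days, so that the leading aldolase transcript differed between the times in all 6 libraries. All 14 fiber markers fell too, with sums of 25910, 35420 and 10810 CPM in replicates 1, 2 and 3 at 5 days. Their part in the fall of Aldoc was not tested.

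The minor lactate dehydrogenase transcript also fell. Ldhb, the subunit typical of heart that favours lactate use, was at 16.7, 22.7 and 28.7 CPM at 0 h and at 6.68, 9.17 and 8.21 CPM at 5 days. The groups did not overlap, and it fell by 1.495 on the log2 scale (SE 0.23, adjusted p = 0.000167 by edgeR). Ldha held 87.1 ± 2.44% of the summed level per kilobase at 0 h and 95.6 ± 1.18% at 5 days (SD, n = 3). In the hexokinase pair the abundant member lost share: Hk2 held 73.1 ± 1.37% at 0 h and 62.2 ± 1.11% at 5 days (SD, n = 3), as Hk1 rose and Hk2 was not called (-0.04, SE 0.11). Hk2 was still the larger of both in each library.

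Across 12 isoenzyme pairs in the families with more than one listed member, the change of the within-library log2 ratio (CPM plus 0.5) was computed. Library scaling and gene length cancel in it except for the effect of the added 0.5, which shrinks ratios with a member of low level. The ratio did not overlap between the times for 9 pairs, and for each of these the exact two-sided permutation p was 0.1, the smallest that 3 against 3 libraries allow, with an adjusted value of 0.133 over the 12 pairs, so that no pair could pass a threshold of 0.05. How often ratios of other gene pairs fail to overlap was not computed, while 58.1% of single genes tested did not overlap. The phosphofructokinase pairs also share genes, and the count of 9 is therefore no result about isoenzymes. Aldoa over Aldoc rose 7.61-fold (log2 ratio -1.27 ± 0.062 at 0 h and 1.66 ± 0.778 at 5 days, SD, n = 3) and Slc2a1 over Slc2a3 fell 7.58-fold (7.98 ± 0.044 and 5.06 ± 0.294, SD, n = 3). The order of these 2 pairs depends on the added value: with 0.1 CPM the isoenzyme log2 ratio Aldoa/Aldoc changed by 2.93 and the isoenzyme log2 ratio Slc2a1/Slc2a3 by -3.07, and with 2 CPM by 2.92 and -2.51. Ldha over Ldhb followed with a 3.11-fold rise. Hk1 over Hk2 rose 1.65-fold, while Pfkm over Pfkp fell 1.58-fold and Pfkfb3 over Pfkfb4 fell 1.95-fold. The pairs whose libraries overlapped were Pfkl with Pfkm, Slc16a1 with Slc16a3 and Egln1 with Egln3, each with an exact permutation p of 0.3. Lengths are those of all annotated exons of a gene and do not reflect which transcripts were in use.

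**Figure D3:**
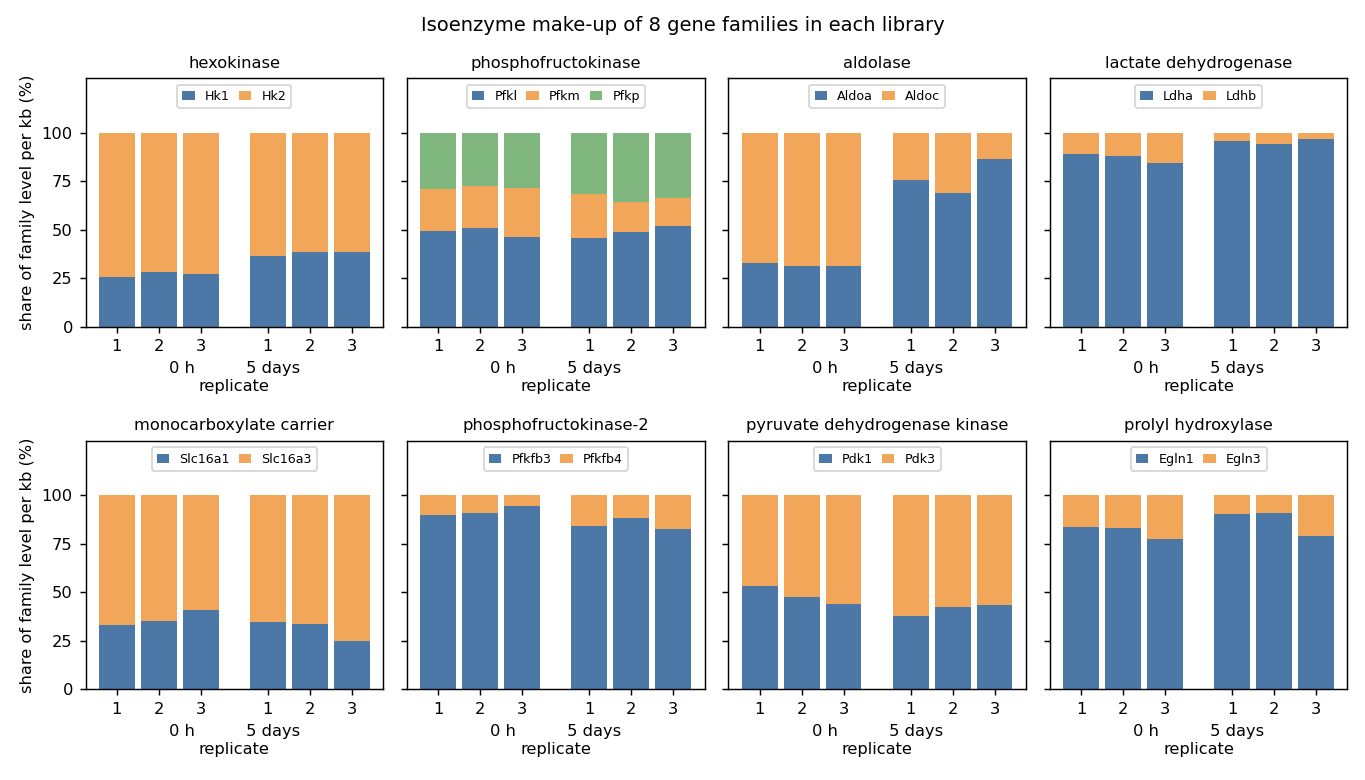
Share of each isoenzyme in the summed level per kilobase of exon of its family, as stacked bars for the 3 libraries of 0 h and the 3 of 5 days, for 8 families. The aldolase bars turn from mostly Aldoc (67.2 to 68.9%) to mostly Aldoa (69.0 to 86.5%), and the Ldhb part shrinks from 10.8 to 15.6% down to 3.43 to 5.73%.

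Among the regulatory kinases, 1 of 4 genes passed the test (25% called, beside 47.6% of all genes) and none changed as much as 2-fold. Pfkfb3 encodes an enzyme whose product, a fructose bisphosphate, activates phosphofructokinase. It was at 91.5, 97.7 and 91.1 CPM at 0 h and 78.5, 75.2 and 76.2 CPM at 5 days, a fall of 0.29 on the log2 scale (SE 0.09, adjusted p = 0.0204 by edgeR). The call was lost with total library size (-0.16), without the low-count filter, with DESeq2 and without replicate 2 of either time, with adjusted p of up to 0.168. Pfkfb4, a related enzyme of low level, did not overlap between the times (3.34 to 6.47 CPM against 6.53 to 10.3 CPM) but was not called (0.70, SE 0.31, adjusted p = 0.088 by edgeR), and was called higher without replicate 2 at 5 days (0.88). Pdk1 and Pdk3, kinases that switch off the entry of pyruvate into mitochondria, were not called, at -0.26 (SE 0.15) and 0.12 (SE 0.17), and Pdk1 was called lower without replicate 3 at 5 days (-0.48).

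Hif1a, the oxygen-regulated subunit of HIF, had the smallest adjusted p of the 32 genes. It stood at 1195, 1234 and 1266 CPM at 0 h and at 350.6, 371.7 and 340.2 CPM at 5 days. The libraries of each time lay close together and far from those of the other, and Hif1a was 3.48-fold lower at 5 days (log2 fold change -1.80, SE 0.11, adjusted p = 6.95e-08 by edgeR). Per kilobase of exon it stood at 209 CPM at 0 h, behind Aldoc, Slc2a1 and Aldoa, and at 60.1 CPM at 5 days. Under the 14 alternatives its log2 fold change was -1.83 to -1.67. All 14 fiber markers fell in the same comparison, and their part in the fall of Hif1a was not tested. The prolyl hydroxylase Egln1 was not called at -0.10 (SE 0.11), which was 0.03 with total library size. Egln3, a hydroxylase gene that HIF itself induces, was at 21.2, 27.5 and 31.4 CPM at 0 h and 11.1, 10.8 and 31.97 CPM at 5 days. Replicate 3 stood apart within the 5 day group: Egln3 was not called in the main fit (-0.55, SE 0.35) and was called lower without replicate 3 (-1.30, adjusted p = 5.6e-05 by edgeR). With all libraries it was also called lower without the low-count filter and with a replicate block.

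The 4 HIF target genes went both ways, with 2 higher, 1 lower and 1 not called (75% called, beside 47.6% of all genes). Ankrd37, a small ankyrin-repeat gene strongly induced by HIF, rose from 4.04, 2.85 and 2.98 CPM to 7.48, 6.66 and 12.5 CPM (log2 fold change 1.44, SE 0.33, adjusted p = 0.00309 by edgeR). Adm, which encodes the vasodilator peptide adrenomedullin, had 4 counts at 0 h, all in replicate 2 (0.439 CPM), against 2.39, 2.26 and 9.85 CPM at 5 days. It rose by 4.83 (SE 0.95, adjusted p = 0.0012 by edgeR), a size that rests on single libraries: it was 3.74 without replicate 3 at 5 days, and without replicate 2 at 0 h no 0 h count was left and Adm was at least 25.5-fold higher against a floor of 3 counts over the remaining 0 h libraries (the floor covers counting error alone). Ndrg1, a stress-response gene also linked to differentiation, fell from 313.4, 258.5 and 269.0 CPM to 69.9, 69.1 and 125 CPM (-1.67, SE 0.20, adjusted p = 2.53e-05 by edgeR). Bnip3, a mitochondrial receptor for autophagy, was not called (0.32, SE 0.21): its 5 day libraries were at 44.6, 46.7 and 85.2 CPM, and without replicate 3 the log2 fold change was -0.06. For Adm, Ankrd37, Bnip3 and Ndrg1 alike, replicate 3 was the highest of the 5 day libraries.

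The 33 further HIF target genes of the list set beside these, all tested, held 13 that rose and 9 that fell (66.7% called, beside 47.6% of all genes), and their median change was 0.33. The list was not tested against other genes, and several of its members answer to other signals too. Anxa2, a membrane-binding annexin and the called gene of the list with the highest level at 5 days, rose from 132.6 ± 14.4 to 608.8 ± 85.8 CPM (SD, n = 3). Tfrc, the transferrin receptor that imports iron, fell most, from 140.3 ± 1.43 to 33.1 ± 3.42 CPM (SD, n = 3). Some genes often read as signs of low oxygen, chosen after their values were seen, rose with libraries that did not overlap: Vegfa by 1.26 (SE 0.21), the carbonic anhydrase Car9 by 2.85 (SE 0.19) and Angptl4 by 5.88 (SE 0.24). Vegfa was at 0.88 without replicate 3 at 5 days. Of other genes of the list, chosen in the same way, P4ha1 (0.10, SE 0.11), Ak4 (0.33, SE 0.25) and Higd1a (-0.04, SE 0.16) were not called. Mxi1 fell by 0.48 (SE 0.11). The mitophagy receptor Bnip3l, also chosen after its values were seen, fell by 1.23 on the log2 scale (SE 0.11).

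Of 12 further genes of HIF subunits and oxygen sensing, 1 rose and 1 fell (16.7% called, beside 47.6% of all genes), with a median log2 fold change of -0.02. Arnt2, a partner subunit found mainly in nervous tissue, rose from 17.01 ± 2.39 to 38.8 ± 7.75 CPM (SD, n = 3). Cited2, which competes with HIF for a coactivator, fell from 81.9 ± 6.61 to 20.7 ± 3.88 CPM (SD, n = 3), a change of -1.97 (SE 0.14). The partner Arnt (0.17, SE 0.10), the ubiquitin ligase subunit Vhl (0.07, SE 0.12), the sister subunit Epas1 (-0.32, SE 0.14) and the asparagine hydroxylase Hif1an (-0.10, SE 0.13) were not called. With replicate 1 at 0 h or replicate 3 at 5 days left out, 2 genes of this list fell, and with total library size 2 rose.

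Pathways that branch from glycolysis went both ways. In the pentose phosphate and polyol list 2 of 11 tested genes rose and 4 fell (54.5% called, beside 47.6% of all genes). Tkt, the transketolase of the pentose phosphate pathway, fell from 2235 ± 65.1 to 679 ± 72.8 CPM (SD, n = 3), a change of -1.72 (SE 0.12), and Sord, which turns sorbitol into fructose, fell by 2.49 (SE 0.22). Pgd, which yields NADPH in the same pathway, rose by 1.01 (SE 0.13). Of 12 glycogen genes 4 rose and 3 fell (58.3% called): the muscle phosphorylase Pygm fell by 2.65 (SE 0.16), the brain phosphorylase Pygb by 0.47 (SE 0.09), and the targeting subunit Ppp1r3b rose by 2.95 (SE 0.57), or by 4.27 without replicate 3 at 0 h. The liver phosphorylase Pygl, chosen after its values were seen, was not called (-0.17, SE 0.15), at 485.8 CPM at 0 h and 432.9 CPM at 5 days. Among 10 tested isoenzymes of the glycolytic steps beyond the 32 genes, 3 rose and 4 fell (70% called). The ADP-dependent kinase Adpgk rose by 0.61 (SE 0.13) and the hexokinase Hk3, typical of white blood cells, by 3.76 (SE 0.61), while the muscle mutase Pgam2, also one of the striated muscle markers above, had 238 counts at 0 h and 1 at 5 days, a ratio of 223 (95% exact counting interval 39.7 to 8854).

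Of 12 genes that carry pyruvate into mitochondria or control its entry, 2 rose and 4 fell (50% called, near the 47.6% of all genes), with a median of -0.24. Pdk2, another pyruvate dehydrogenase kinase, fell from 99.2 ± 14.5 to 28.6 ± 3.59 CPM (SD, n = 3), a change of -1.80 (SE 0.14). The phosphatase gene Pdp1 rose by 0.85 (SE 0.27), a call that ended on dropping replicate 1 of the 0 h group or replicate 1 or 3 of the 5 day group, and 1 rather than 2 genes of this list rose without any one of replicates 1 and 3 of either time. Of 16 citric acid cycle genes, 1 rose and 7 fell (again 50% called), with a median of -0.21. Sdha fell by 0.48 (SE 0.09) and Suclg2 by 1.30 (SE 0.10), while Dlst rose by 0.44 (SE 0.09), and with total library size 3 genes of the cycle rose, as 2 did without replicate 2 at 5 days.

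Among other carriers, 2 of 6 tested hexose transporters rose and 1 fell (50% called, near the 47.6% of all genes): Slc2a9, a urate and glucose carrier, rose by 2.57 (SE 0.56), or by 3.31 without replicate 2 at 0 h, and Slc2a12 fell by 1.52 (SE 0.39). With a filter of 2 CPM in 3 libraries 1 rather than 2 hexose transporters rose. Of 10 tested monocarboxylate carriers and chaperones, 2 rose and 2 fell (40% called). The creatine carrier Slc16a12, known for a form of juvenile cataract when mutated, fell from 56.8 ± 6.38 to 30.1 ± 6.58 CPM (SD, n = 3), a change of -0.92 (SE 0.16). Slc16a10 rose by 1.39 (SE 0.52) and the chaperone Emb fell by 0.37 (SE 0.13), but Slc16a10 passed in only those left-out-library fits that dropped replicate 1 at 0 h (2.00) or replicate 3 at 5 days. The Emb call ended when any 0 h library or replicate 3 at 5 days was dropped, and with total library size. None of the 3 tested genes of fructose bisphosphate control passed edgeR's test, while 1 (Pfkfb2, -0.70) had an unadjusted p under 0.05, 1 fell with limma-voom and without replicate 2 at 5 days, and 0 fell with DESeq2.

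**Figure D4:**
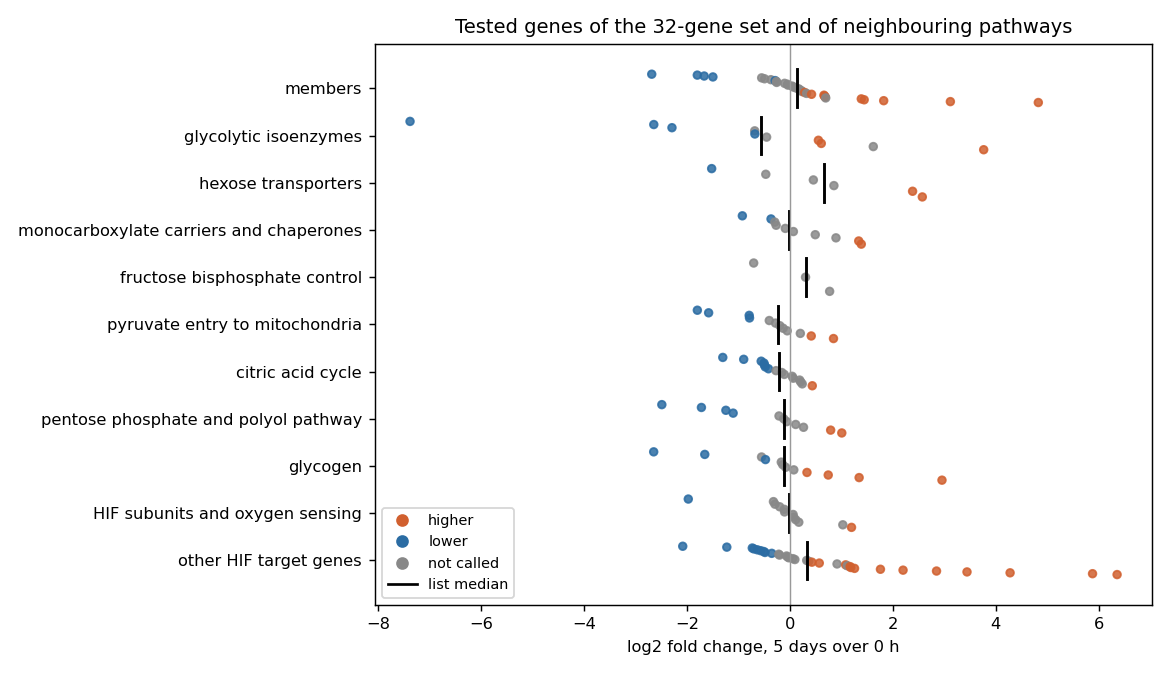
Log2 fold changes at 5 days over 0 h for the tested genes of the 32-gene set (top row, members) and of 10 neighbouring lists, with orange for genes that rose, blue for genes that fell, grey for genes not called and a black line at each list's median. The medians lie between -0.57 and 0.66, and the other HIF target genes hold 13 orange and 9 blue points.

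HIF binds DNA at a short core of ACGTG or GCGTG, and the upstream sequences of the 32 genes were searched for it on both strands in the 250 bases before each transcript start, taken from RefSeq on build GRCm38.p6. On the printed strand the reverse matches read CACGT and CACGC, a palindromic CACGTG counts once on each strand, and overlapping cores run together. Starts were held for 30 of the 32 genes, as 43 windows. Those of Slc2a3, which rose, and Ndrg1, which fell, were missing. ACGTG was found in 46.5% of these windows and in 16.6% of the 32851 windows of all genes, and GCGTG in 55.8% and 28.2%. The windows of the set were also richer in G and C, with a median of 61.6% against 52.4%, and the part of base composition in the difference was not tested. By change at 5 days, either core was found for 9 of 9 genes that rose, 4 of 4 that fell and 14 of 17 not called, so its presence did not separate the directions. A match is a stretch of letters and not a measured binding site. For 35 of the 43 windows the bases just after the start were found in annotated transcripts of these genes.

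These upstream windows are printed, for genes whose changes carry the results above, with each core in capitals. The genes that rose are Slc16a3 at chr11:120948817-120949066 (plus strand), Slc16a1 at chr3:104638414-104638663 (plus strand), Pgk1 at chrX:106186850-106187099 (plus strand) and Ankrd37 at chr8:45999851-46000100 (minus strand). Those that fell are Hif1a at chr12:73907617-73907866 (plus strand) and Aldoc at chr11:78322823-78323072 (plus strand), where the first of 2 listed starts was taken. For Slc16a1 and Hif1a the bases just after the start were not found in the annotated transcripts.
Slc16a3: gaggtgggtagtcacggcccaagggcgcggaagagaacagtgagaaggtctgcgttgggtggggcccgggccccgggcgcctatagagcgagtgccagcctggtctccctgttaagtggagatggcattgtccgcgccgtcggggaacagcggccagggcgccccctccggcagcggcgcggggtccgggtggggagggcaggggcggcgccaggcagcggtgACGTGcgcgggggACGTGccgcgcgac
Slc16a1: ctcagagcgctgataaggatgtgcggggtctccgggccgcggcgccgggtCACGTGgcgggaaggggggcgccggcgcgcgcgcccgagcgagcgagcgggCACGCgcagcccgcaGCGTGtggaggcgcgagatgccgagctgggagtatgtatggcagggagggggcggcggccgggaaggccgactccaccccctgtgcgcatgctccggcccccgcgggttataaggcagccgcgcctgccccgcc
Pgk1: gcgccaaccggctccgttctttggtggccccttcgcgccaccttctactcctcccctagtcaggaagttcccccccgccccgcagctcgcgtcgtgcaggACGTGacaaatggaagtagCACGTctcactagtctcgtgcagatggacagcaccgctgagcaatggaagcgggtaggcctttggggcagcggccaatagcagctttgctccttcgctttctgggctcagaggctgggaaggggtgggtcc
Ankrd37: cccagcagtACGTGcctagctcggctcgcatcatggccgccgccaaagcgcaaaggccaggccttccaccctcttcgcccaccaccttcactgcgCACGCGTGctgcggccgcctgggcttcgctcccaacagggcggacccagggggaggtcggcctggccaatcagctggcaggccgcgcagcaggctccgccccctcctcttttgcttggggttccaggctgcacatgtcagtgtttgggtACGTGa
Hif1a: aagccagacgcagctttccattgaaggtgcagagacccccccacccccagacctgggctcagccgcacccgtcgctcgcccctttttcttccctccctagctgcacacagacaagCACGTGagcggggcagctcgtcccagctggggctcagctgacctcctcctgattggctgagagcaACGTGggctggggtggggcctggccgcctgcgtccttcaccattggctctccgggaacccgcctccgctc
Aldoc: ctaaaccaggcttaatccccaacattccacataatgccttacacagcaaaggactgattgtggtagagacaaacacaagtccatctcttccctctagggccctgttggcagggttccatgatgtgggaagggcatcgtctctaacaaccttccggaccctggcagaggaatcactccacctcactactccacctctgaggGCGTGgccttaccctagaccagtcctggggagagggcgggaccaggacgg
In the Slc16a3 window both cores lie on the given strand close to the start, in Pgk1 one lies on each strand, and the window of Hif1a, which fell, holds cores as well.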

How the data were processed

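Total RNA of lens capsules was sequenced in 6 libraries (3 per time, pools of 5 capsules) with a SMARTer stranded pico-input kit, per the labels' protocols. The authors deposited raw read counts per Ensembl gene. The submitters' processing notes name HISAT2, HTSeq, edgeR and build GRCm39. Versions, annotation release and strand setting were not given in the sources used here. Counts of overlapping, antisense and near-identical genes are therefore uncertain. The HTSeq summary entries (32.26 to 42.55% of reads) were left out. Symbols came from GENCODE M21 (GRCm38) by identifier (91.23% of genes), as did exon lengths.

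Genes were kept by edgeR's default low-count filter, scaled with TMM and tested with its quasi-likelihood test without a block (edgeR 4.0.16, R 4.3.3; common biological coefficient of variation 0.156), and p-values were adjusted by Benjamini-Hochberg across the tested genes. Alternatives were other scalings, filters, DESeq2 1.42.0, limma-voom (limma 3.58.1), a replicate block and each library left out; running them for the neighbouring lists was chosen after seeing the data. The code was tested on simulated data. The 32 genes and all lists were chosen with earlier results of these data known. Values of every library are given for called members of at least 2-fold change and the most abundant member of each role, with others added after their values were seen; from other lists the highest called gene, largest rise and largest fall are named (1 such gene is not reported here), and further names were chosen after their values were seen. Intervals and floors cover counting error alone. Figures were drawn with Python 3.11.15 and matplotlib 3.10.9.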

Additional observations from a re-analysis of the deposited data

How the results depend on the processing

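The counts of higher and lower genes kept within 1.5-fold of 10 and 5 under every alternative except one: 9 genes fell without replicate 3 at 5 days. Leaving out single libraries, 8 to 12 genes rose, 4 to 9 fell, 16 to 22 did not overlap, and 9 to 10 isoenzyme pairs did not overlap. Fewer libraries fail to overlap more easily, and the share of all genes that did so is not given for these fits. Their counts without overlap are therefore no result about the 32 genes. With the replicate block 10 genes rose and 6 fell, the addition having a log2 fold change of Egln3 of -0.71 and an edgeR adjusted p of 0.0266, and 10 isoenzyme pairs moved one way in all 3 numbers. The block changed no other call among the 32 genes. The labels do not say that numbers pair pools, and deviations of same-numbered libraries correlated at 0.04, -0.09 and 0.05. Only genes that were not called changed sign. With total library size Hk2 was at 0.092, Slc2a1 at 0.082 and Egln1 at 0.03. With single libraries left out, Hk2 ranged from -0.168 to 0.065, the log2 fold change of Pfkl from -0.103 to 0.116, Eno1 from -0.076 to 0.175, Ldha from -0.001 to 0.355, the log2 fold change of Slc2a1 from -0.23 to 0.057, Pdk3 from -0.02 to 0.216 and Bnip3 from -0.061 to 0.484. The change of Slc2a1 over Slc2a3 was -2.51 with a pseudocount of 2 CPM. An added value shrinks ratios with a member of low level, and Slc2a3 was at 3.17 CPM at 0 h. Hk1, Aldoc, Pgk1, Pgam1, Ldhb, Slc2a3, Slc16a1, Slc16a3, Hif1a, Ndrg1, Adm and Ankrd37 kept their calls in all 14 alternatives. With 3 libraries per time, genes of a few CPM such as Adm and Pfkfb4 are measured with wide error.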
